A study of Meleagris gallopavo with 3 samples.

Results

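The comparison described here set adherent differentiated satellite cells of the turkey (Meleagris gallopavo) against the same kind of cells grown in suspension. Satellite cells are the stem cells of skeletal muscle. They lie between the fibre and its basal lamina, divide after injury, express PAX7 and then MYOD1, and leave the cell cycle when they fuse into myotubes and build sarcomeres. Connective tissue cells that live beside the fibres make the collagen and proteoglycan matrix of the muscle, and they also grow in cultures made from it.

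All cells came from breast muscle (Pectoralis thoracicus) of 1-day-old birds and were grown for 2 weeks on gelatin in McCoy's 5A medium with 15% chicken serum before the groups were formed. Differentiated cells stayed attached and received DMEM with 4% horse serum, in which they were described as fused to myotubes. Suspended cells were detached and kept for 3 months in flasks turned at 110 rpm, in McCoy's 5A with 15% chicken serum. RNA of 3 repeats of the experiment was pooled within each group and sequenced as 1 library per group, and another library of adherent undifferentiated cells belongs to the same study. Attachment, medium, serum and time in culture all differ between differentiated and suspended cells and cannot be told apart.

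The libraries are called by the headings of their columns, Differentiating and Suspension. They held 22816125 and 23844835 reads on exons, and each count was divided by this total and is given as reads per 1000000 exon reads (CPM). Genes with at least 5 CPM in either library were kept, which left 10141 of 23976 genes, against 11022 that reached this level in at least 1 of the 3 libraries. Counts over a gene list cover its members that passed this minimum, which favours genes that are high on 1 side, and are descriptions. A gene rose or fell where the ratio of its CPM reached 2-fold, which is 1 on the log2 scale. Brackets after a log2 ratio hold the exact 95% Clopper-Pearson interval of the ratio. This interval covers counting error only, and with 1 pooled library on each side no SD and no p-value was computed. Since RNA was taken from whole cultures, fewer cells of a type and less RNA per cell cannot be told apart.

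The deposited table does not use the names Suspension and Adherent in a single way. Its fold change named for suspended and differentiating cells followed, within 0.02 on the log2 scale, from the counts under Adherent divided by those under Differentiating or the reverse in 100% of 12207 genes. The ratio that it names for the adherent against the differentiating culture followed in the same manner from the counts under Suspension in 100% of 12154 genes. The study's published values have OBSL1 far higher in adherent than in suspended cells, and EEF1A2 highest in suspended cells. In the counts OBSL1 had 273.3 CPM under Suspension and 1.89 CPM under Adherent, and EEF1A2 had 359.1 and 1331 CPM. The study also lists MATN1 as higher in suspended than in differentiated cells, and it had 493 reads under Adherent and 1 under Suspension. For these genes, and in the deposited fold changes, the study's naming takes the library headed Adherent as suspended cells. The one headed Suspension is then the adherent undifferentiated culture. By that naming the ratios of Differentiating to Suspension compare differentiated with adherent undifferentiated cells. Those of Differentiating to the library headed Adherent then compare differentiated with suspended cells. The counts alone do not tell which naming is true of the cultures. Lists and genes are therefore given for the libraries as headed. Most of them are also given with the library headed Adherent in the place of suspended cells, which is called the exchange. A value given only as headed does not tell what the exchange gives.

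Of the 10141 genes, 826 were at least 2-fold higher in Differentiating than in Suspension, which is 8.15% of the genes compared. A further 1430 genes, 14.1%, were at least 2-fold lower, and 7885 were neither. The middle of all genes lay slightly below 0, with a median log2 ratio of -0.18 and quartiles of -0.59 and 0.21. Genes that rose did so over a wider range than genes that fell. At least 16-fold differences were seen in 121 genes that rose, 6 of which had no read in Suspension, and in 18 genes that fell. The genes that rose took 24.9% of the reads of Differentiating and 7.22% of the reads of Suspension. The genes that fell took 7.07% of the reads of Differentiating and 23.6% of those of Suspension. Among the 386 genes with at least 500 CPM in either library, 17.1% rose and 27.2% fell, which are larger shares than among all genes. Scaling by TMM factors, which are set by the bulk of genes and not by the read total, moved all log2 ratios up by 0.19 and gave 1052 genes that rose and 1126 that fell. Ratios are given by the read total throughout, and the median of -0.18 is their point of comparison. Counts over a list have the shares of all genes, 8.15% higher and 14.1% lower, as theirs.

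**Figure D1:**
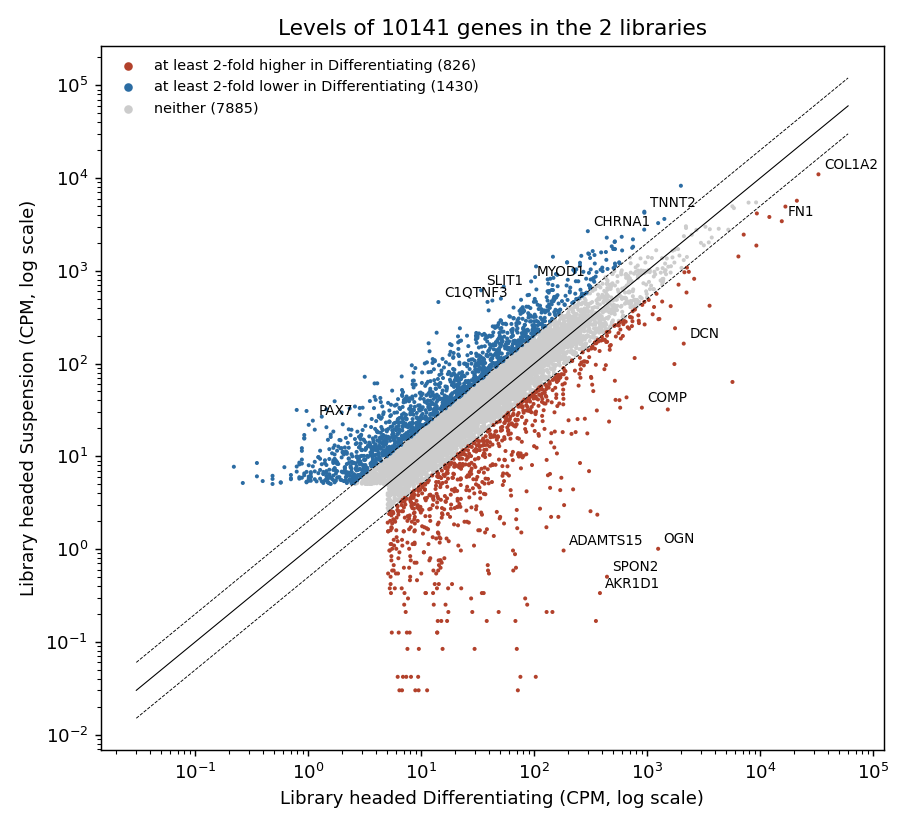
Each point is 1 of 10141 genes, with its level in the library headed Differentiating on the horizontal axis and in the library headed Suspension on the vertical axis, both in CPM on log scales. The solid line marks equal levels and the dashed lines 2-fold differences, genes with 0 CPM are drawn just under the level of 1 read, and the 826 genes below the lower dashed line reach farther from it than the 1430 genes above the upper one.

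With the exchange, 10757 genes were compared, of which 1941 (18.0%) rose in Differentiating and 2479 (23.0%) fell, with a median log2 ratio of -0.06. Both versions share the library headed Differentiating. Of the 826 genes that rose, 432 (52.3%) were also at least 2-fold higher against the library headed Adherent, 119 were at least 2-fold lower and 275 were neither. Of the 1430 genes that fell, 567 (39.7%) were also at least 2-fold lower, 172 were higher and 691 were neither. The direction of a single gene or list therefore has to be read under both uses of the headings. Counts over a list with the exchange compare with 18.0% higher and 23.0% lower among all genes.

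**Figure D2:**
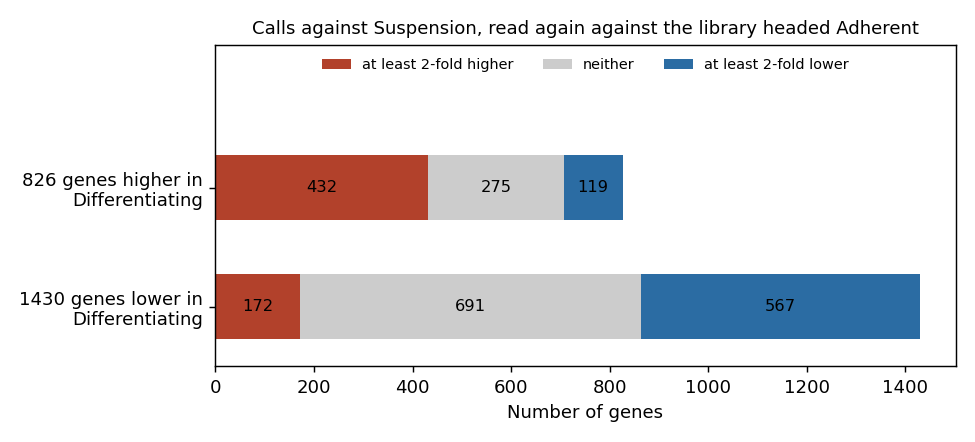
The bars count the genes that were at least 2-fold higher (826) or lower (1430) in Differentiating than in Suspension, divided by their ratio to the library headed Adherent. Of the genes that rose 432 stayed at least 2-fold higher and 119 turned at least 2-fold lower, and of the genes that fell 567 stayed lower and 172 turned higher.

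Most transcription factors of the muscle lineage were lower in Differentiating. Of 15 measured members of the list, none rose and 11 fell, with a median log2 ratio of -1.68, against -0.18 for all genes. MYOD1, which starts the muscle programme, had 93.8 CPM in Differentiating and 767.9 CPM in Suspension, a log2 ratio of -3.03 (-3.10 to -2.97). MYF5, which acts beside MYOD1 in early myoblasts, had 1.97 CPM in Differentiating and 29.7 CPM in Suspension, a log2 ratio of -3.91 (-4.38 to -3.48). MYF6, a factor of the same family that is most used late in differentiation, had 1.84 and 12.8 CPM in Differentiating and Suspension, a log2 ratio of -2.79. All 3 factors of this family in the table therefore stood at their lowest in Differentiating. MYOG, the factor most closely tied to fusion, was not analysed here.

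The partners of these factors followed with smaller ratios. MEF2A, MEF2C and MEF2D, which act with the MYOD1 family on muscle promoters, had log2 ratios of -1.50, -1.83 and -1.68. SIX4 and PITX3, homeodomain factors of the lineage, had log2 ratios of -2.53 and -2.56, although only 15% of the PITX3 reads in Differentiating were unique to 1 gene. ID1, which holds back MYOD1 by binding its partners, also fell, with 16.9 CPM in Differentiating and 40.1 CPM in Suspension. ID2 and VGLL2 had log2 ratios of 0.09 and 0.10 and moved by less than 2-fold.

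With the exchange the median of the list was -1.94, and 10 of 16 members fell. MYOD1 and MYF5 stood at 1522 and 263.1 CPM in the library headed Adherent, so that their log2 ratios became -4.02 and -7.06. MEF2A and MEF2C no longer passed 2-fold, with log2 ratios of -0.52 and -0.30, and MEF2D had one of -1.01. EYA2, a cofactor of SIX4, turned round, since its level of 63.7 CPM in Differentiating lay below the 154.2 CPM of Suspension and above the 5.22 CPM of the library headed Adherent.

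Markers of satellite cell identity showed the same direction. Of 13 members with at least 5 CPM in either library, 1 rose and 9 fell, and the median log2 ratio was -2.20. PAX7, the defining factor of satellite cells, had 25 reads in Differentiating and 578 in Suspension, a log2 ratio of -4.47 (-5.11 to -3.89). MEGF10, a receptor that keeps satellite cells dividing, had 2.85 CPM in Differentiating and 33.2 CPM in Suspension, a log2 ratio of -3.54 (-3.93 to -3.18). Both genes were thus below 5 CPM in Differentiating.

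Receptors and filaments of activated myoblasts were lower as well. MET, the receptor for the growth factor HGF, FGFR4 and HEY1, a target of Notch, had log2 ratios of -2.75, -2.32 and -2.77. NCAM1, an adhesion molecule of myoblasts, had 195.4 CPM in Differentiating and 1236 CPM in Suspension, a log2 ratio of -2.66. NES and DES, which encode the intermediate filament proteins nestin and desmin, had 942.5 and 940.3 CPM in Differentiating and 4340 and 2781 CPM in Suspension. CHRDL2, an antagonist of BMP signals, was the only member that rose, with 14.8 CPM in Differentiating and 1.30 CPM in Suspension.

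With the exchange the median was -2.60, and 9 of 15 members fell. MEGF10 and FGFR4 had 426 and 612.7 CPM in the library headed Adherent, so their log2 ratios became -7.22 and -3.94. NES, however, had 24.1 CPM there and became higher in Differentiating, with a log2 ratio of 5.29. DES and NCAM1 had log2 ratios of -0.18 and 0.12 and no longer passed 2-fold.

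Genes of myoblast fusion were mixed. Of 11 measured members, 2 rose and 6 fell, and the median log2 ratio was -1.77. CDH2, the cadherin that holds myoblasts together, had 142.5 CPM in Differentiating and 621.3 CPM in Suspension, a log2 ratio of -2.12 (-2.18 to -2.07). CAV3 and CAPN3, a caveolin and a protease of the muscle membrane and sarcomere, had log2 ratios of -1.77 and -2.30, and JAM3, an adhesion molecule of which 28% of the reads in Differentiating were unique, had one of -2.12. TMEM8C, the older symbol of the fusion protein myomaker, was outside the list and was chosen after its values were seen, with 101.7 CPM in Differentiating and 855.6 CPM in Suspension, a log2 ratio of -3.07 (-3.13 to -3.01), and 0.04 with the exchange. ELMO1, part of the machinery that drives actin at the fusion site, rose, with 41.1 CPM in Differentiating and 7.93 CPM in Suspension. The exchange gave a median of -0.13, 2 of 12 members higher, 4 lower, and CDH2 turned to a log2 ratio of 3.19 from 15.6 CPM in the library headed Adherent. CAV3, JAM3 and ELMO1 no longer passed 2-fold, with log2 ratios of 0.92, -0.23 and 0.32.

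Most genes of the contractile apparatus were lower in Differentiating. Over thick filament, thin filament and Z-disc together, 56 genes were compared, of which none rose and 44 fell, with a median log2 ratio of -1.77. These genes held 1.27% of the reads of Differentiating and 3.65% of those of Suspension. The label of the group says only differentiated cells, and the study's methods describe them as fused to myotubes. The median ratios of the sarcomere and fusion lists against Suspension lay below 0 in this library. With the exchange the sum was 1.27% against 2.31% in the library headed Adherent, and 14 of 59 genes were higher and 26 lower.

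In the thick filament, 11 of 15 genes fell. TTN, the giant protein titin that runs from Z-disc to M-band, had 438.2 CPM in Differentiating and 2277 CPM in Suspension, a log2 ratio of -2.38 (-2.41 to -2.35). MYL1, a light chain of fast myosin, had 485.1 CPM in Differentiating and 1835 CPM in Suspension, a log2 ratio of -1.92. MYOM3, a myomesin of the M-band, had 89.98 CPM in Differentiating and 550 CPM in Suspension, a log2 ratio of -2.61. SMYD1, a methyltransferase needed to assemble sarcomeres, had a log2 ratio of -2.36. With the exchange MYL1 and SMYD1 no longer passed 2-fold, at -0.59 and -0.69, and MYOM3 turned to 2.22. The heavy chain genes of myosin in the list were not analysed here.

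In the thin filament, 13 of 16 genes fell. TNNT2, the troponin T of heart and embryonic muscle, had 942.9 CPM in Differentiating and 4225 CPM in Suspension, a log2 ratio of -2.16 (-2.19 to -2.14). TNNT3, the troponin T of fast fibres, had 594.5 CPM in Differentiating and 2325 CPM in Suspension, a log2 ratio of -1.97. TNNC2, the fast troponin C, had 65.6 CPM in Differentiating and 401.3 CPM in Suspension, a log2 ratio of -2.61. All 3 troponin genes were lower in Differentiating. ACTA1, the skeletal actin, was level between the 2 libraries, with 1756 CPM in Differentiating and 1691 CPM in Suspension, but only 32% of its reads in Differentiating were unique to 1 gene.

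The exchange parted the fast from the slow and heart forms, and the genes in this paragraph other than TNNT2, TNNT3 and TNNC2 were chosen after their values were seen. TNNC1 and TNNI1, the slow troponins C and I, had 228.3 and 518.7 CPM in Differentiating and 28.8 and 65.9 CPM in the library headed Adherent, with log2 ratios of 2.99 and 2.98, against -2.09 and -1.73 in the libraries as headed. MYL3, a light chain of slow myosin, had log2 ratios of 6.19 with the exchange and -1.84 as headed. TNNT2 turned likewise, to 3.28. The fast forms kept their direction, with log2 ratios of -3.67 for TNNC2, -1.27 for TNNT3 and -0.49 for TNNI2, the last below 2-fold.

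At the Z-disc 20 of 25 genes fell, none rose and the median log2 ratio was -1.60. ACTN2, the actinin that crosslinks actin there, had 505.9 CPM in Differentiating and 1728 CPM in Suspension, a log2 ratio of -1.77, and -0.55 with the exchange. ANKRD1, a stress-sensing protein that binds titin, had 329.1 CPM in Differentiating and 1632 CPM in Suspension, a log2 ratio of -2.31. IGFN1, an immunoglobulin-like protein of the Z-disc, had one of the lowest ratios of the whole comparison, with 11.6 CPM in Differentiating and 165.4 CPM in Suspension, a log2 ratio of -3.83 (-4.02 to -3.65). With the exchange the median was -0.66, and ANKRD1 and IGFN1 had log2 ratios of 0.23 and 0.99.

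Genes that couple the nerve signal to contraction were also lower. Of 16 genes of excitation-contraction coupling 12 fell and 1 rose, and of 11 genes of the neuromuscular junction 9 fell and 1 rose, with medians of -2.0 and -2.64. CACNA1S, the voltage sensor of the muscle membrane, had 43.4 CPM in Differentiating and 216.8 CPM in Suspension, a log2 ratio of -2.32 (-2.42 to -2.22). CASQ2, which stores calcium in the reticulum, had 145.2 CPM in Differentiating and 702.4 CPM in Suspension, a log2 ratio of -2.27. SLN, a small inhibitor of the calcium pump, rose, with 18.3 CPM in Differentiating and 2.73 CPM in Suspension.

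At the junction, the receptor and the proteins that gather it fell together. MUSK, the kinase that starts the clustering, had 13.2 CPM in Differentiating and 108.7 CPM in Suspension, a log2 ratio of -3.05 (-3.23 to -2.88). RAPSN, the scaffold, had 17.97 CPM in Differentiating and 162 CPM in Suspension, a log2 ratio of -3.17, with 59.5% of its reads in Differentiating unique. CHRNG, the fetal subunit of the acetylcholine receptor, had 31.5 CPM in Differentiating and 196.2 CPM in Suspension, a log2 ratio of -2.64. AGRN, the matrix signal to MUSK, and SCN4A, the sodium channel of muscle, had log2 ratios of -3.51 and -3.36.

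Of the 9 junction genes that fell as headed 7 also fell with the exchange, as did 39.7% of all genes that fell. With the exchange the junction list had 10 of 12 genes lower, none higher and a median of -2.38. CHRNA1, the alpha subunit of the acetylcholine receptor and the gene with most of the reads of the list in Suspension, went against it, with 297.9 CPM in Differentiating, 2674 CPM in Suspension and 158.7 CPM in the library headed Adherent, and log2 ratios of -3.17 as headed and 0.91 with the exchange. In the coupling list 7 of 16 were lower and the median was -0.76. SLN turned to -1.66 and CASQ2 to 0.53. AGRN and SCN4A had log2 ratios of -4.97 and -3.17 there, and MUSK one of -1.08. Of the ubiquitin ligases and other genes of atrophy 10 of 13 were lower as headed and 10 of 14 with the exchange. Of the 10 lower as headed 6 were lower in both, against 39.7% of all genes that fell. HECW2, TRIM55 and ASB5, all parts of ubiquitin ligases, were not among these 6, with log2 ratios of -3.65, -2.27 and -2.21 as headed and -0.17, -0.03 and 0.88 with the exchange. TRIM63, the ligase MURF1 that degrades myosin, had 39.1 CPM in Differentiating and 136 CPM in Suspension, against 424.4 CPM in the library headed Adherent. RBM24 and RBM20, which direct the splicing of muscle transcripts, had log2 ratios of -2.14 and -2.74, and -2.10 and -3.40 with the exchange.

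**Figure D3:**
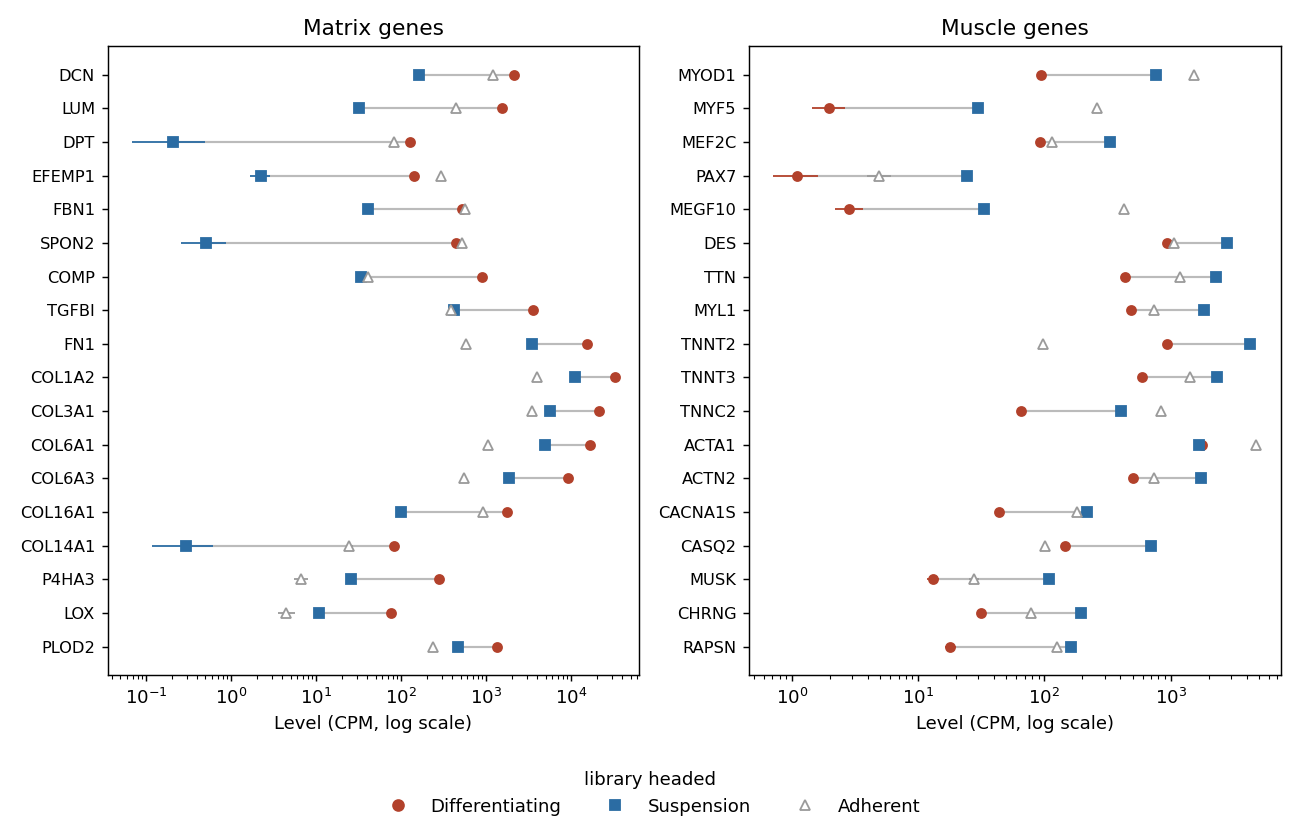
Levels in CPM on a log scale of 18 matrix genes and 18 muscle genes in the libraries headed Differentiating, Suspension and Adherent, with exact 95% Poisson intervals where they are wider than the symbol. All 18 matrix genes lie higher in Differentiating than in Suspension, and all muscle genes but ACTA1 lie lower, while the library headed Adherent lies on either side. The genes were picked by hand, and members of the lists that moved the other way, such as COL4A1, OPTC and SLN, are not drawn.

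The matrix moved the other way. Collagens, small leucine-rich proteoglycans, elastic fibre and matricellular proteins together held 15.5% of the reads of Differentiating and 5.00% of those of Suspension. Of 68 genes compared, 39 rose and 6 fell, and the median log2 ratio was 1.34, against -0.18 for all genes. In the library headed Adherent the same genes held 4.14% of the reads, and 31 of 79 genes were higher in Differentiating and 28 lower.

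Of 20 collagen genes 10 rose and 3 fell. COL1A2, a chain of collagen I, had 32780.2 CPM in Differentiating and 10966.7 CPM in Suspension, a log2 ratio of 1.58 (1.57 to 1.59). COL3A1, the chain of collagen III, had 21111 CPM in Differentiating and 5696 CPM in Suspension, a log2 ratio of 1.89. COL6A1, COL6A2 and COL6A3, the chains of the beaded collagen VI around cells, had log2 ratios of 1.76, 1.66 and 2.31. Among single chains with larger ratios, COL16A1 had 1740 CPM in Differentiating and 98.8 CPM in Suspension, a log2 ratio of 4.14 (4.08 to 4.20), and COL14A1 had 1896 reads in Differentiating and 7 in Suspension, a log2 ratio of 8.14 (7.10 to 9.46). COL20A1 fell, with 1.40 CPM in Differentiating and 9.06 CPM in Suspension.

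The collagen list with the exchange had 12 of 24 genes higher, 8 lower and a median of 1.12, against 1.11 as headed. The ratios of the main chains grew, to 3.04 for COL1A2, 2.60 for COL3A1 and 4.01 for COL6A1. Those of COL14A1 and COL16A1 shrank, to 1.76 and 0.94, since these genes had 24.6 and 908.1 CPM in the library headed Adherent.

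Enzymes that modify and crosslink collagen were also higher, most of them by less than 2-fold. Of 28 genes 10 rose, none fell and 25 had a ratio above 1, although the median log2 ratio was only 0.79. P4HA3, a subunit of the prolyl hydroxylase that stabilises the triple helix, had 280.3 CPM in Differentiating and 25.4 CPM in Suspension, a log2 ratio of 3.46 (3.34 to 3.59), with 57.8% of its reads in Differentiating unique. LOX, which crosslinks collagen and elastin, had 75.8 CPM in Differentiating and 10.7 CPM in Suspension, a log2 ratio of 2.82, with 43% of its reads in Differentiating unique. PLOD2, a lysyl hydroxylase, had a log2 ratio of 1.54, and SERPINH1, the chaperone of collagen, one of 0.71, below 2-fold. With the exchange the same list had 24 of 28 genes higher, 1 lower and a median of 2.27, and LOX, P4HA3 and SERPINH1 had log2 ratios of 4.08, 5.40 and 3.25.

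Small leucine-rich proteoglycans, which bind collagen fibrils and set their width, had the highest median of all 60 lists, 2.24. Of 13 genes 9 rose and 1 fell. DCN, decorin, had 2104 CPM in Differentiating and 164.1 CPM in Suspension, a log2 ratio of 3.68 (3.63 to 3.73). DPT, dermatopontin, is in the list but is not itself a small leucine-rich proteoglycan. It had 2934 reads in Differentiating and 5 in Suspension, a log2 ratio of 9.26 (8.04 to 10.88). Of its reads 19% in Differentiating and 0% in Suspension were unique. FMOD, fibromodulin, had 123 and 8 reads in Differentiating and Suspension, a log2 ratio of 4.01. OPTC, opticin, fell, with 30 and 638 reads in Differentiating and Suspension. With the exchange 5 of 15 genes were higher, 5 lower and the median was 0.13, while the summed level stayed higher, at 6753 CPM in Differentiating and 2840 CPM in the library headed Adherent. LUM, OGN and PRELP, which bind collagen too, had log2 ratios of 1.79, 2.22 and 2.45 with the exchange. DCN and DPT then had log2 ratios of 0.81 and 0.65, and FMOD one of -2.86.

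Elastic fibre genes behaved in the same manner, with 8 of 13 higher and 1 lower as headed, 2 of 15 higher and 7 lower with the exchange, and medians of 1.60 and -0.12. FBN1, fibrillin, of which 66.0% of the reads in Differentiating were unique, had 524.3 CPM in Differentiating and 40.6 CPM in Suspension, but 568.5 CPM in the library headed Adherent. EFEMP1, a fibulin, had 140.9 CPM in Differentiating, 2.22 CPM in Suspension and 292.9 CPM in the library headed Adherent. ELN, elastin itself, had 20.7 CPM in Differentiating and 2.85 CPM in Suspension, a log2 ratio of 2.86 (2.49 to 3.25), and 1395 CPM in the library headed Adherent. For these 3 genes the rise rested on which library was taken as suspended cells.

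Among matricellular and adhesive glycoproteins, which sit in the matrix and signal to cells, 12 of 22 rose and 1 fell. SPON2, a spondin, had 10043 reads in Differentiating and 12 in Suspension, a log2 ratio of 9.77 (8.97 to 10.73). THBS2 and COMP, both thrombospondins, had 305.4 and 896.7 CPM in Differentiating and 6.92 and 33.5 CPM in Suspension, with log2 ratios of 5.46 and 4.74. TGFBI, a ligand of integrins, had 3563 CPM in Differentiating and 420.2 CPM in Suspension, a log2 ratio of 3.08. FN1, fibronectin, had 15529.2 CPM in Differentiating and 3424 CPM in Suspension, a log2 ratio of 2.18 (2.17 to 2.19). WISP1 and NOV, both of the CCN family, had log2 ratios of 4.84 and 4.41.

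With the exchange 12 of 25 of these genes were higher and 8 lower, with a median of 0.96. COMP, TGFBI, THBS2 and FN1 stayed higher, with log2 ratios of 4.44, 3.19, 3.91 and 4.73, while SPON2, at 522.7 CPM in the library headed Adherent, had a log2 ratio of -0.25. TNC, tenascin C, was below 2-fold as headed, with 3582 CPM in Differentiating and 2806 CPM in Suspension, and had 27.9 CPM in the library headed Adherent, a log2 ratio of 7.0.

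The basement membrane, the sheet to which satellite cells attach, differed from the rest of the matrix. Of 15 genes none rose and 7 fell, with a median of -0.99. COL4A1 and COL4A2, the chains of its collagen network, had 747.4 and 386.6 CPM in Differentiating and 2183 and 1028 CPM in Suspension, with log2 ratios of -1.55 and -1.41. LAMA5, a laminin chain, had 400 CPM in Differentiating and 1083 CPM in Suspension, a log2 ratio of -1.44 (-1.47 to -1.40). NTN4, a netrin that binds laminin, had a log2 ratio of -1.61. With the exchange 10 of 16 genes were lower and 4 higher, with a median of -2.26, but LAMA5 turned to 1.71 and NTN4 had a log2 ratio of 0.50. Type IV collagen was thus lower and types I, III and VI were higher in Differentiating under both uses of the headings.

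Of 32 metalloproteases and inhibitors 14 rose and 6 fell. ADAMTS15, which cuts large proteoglycans, had 4148 reads in Differentiating and 23 in Suspension, a log2 ratio of 7.56 (6.97 to 8.22). MMP7 and PLAU, a matrix protease and the urokinase activator, had 38.96 and 32.7 CPM in Differentiating and 5.70 and 4.61 CPM in Suspension. TIMP3, an inhibitor held in the matrix, fell, with 500 CPM in Differentiating and 1719 CPM in Suspension, a log2 ratio of -1.78 (-1.81 to -1.75), as did MMP28, another secreted protease, with a log2 ratio of -3.21. With the exchange 13 of 34 were higher and 12 lower, against 18.0% and 23.0% of all genes. TIMP3 and PLAU then had log2 ratios of 0.37 and -0.06.

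Receptors for the matrix differed in both directions. Of 8 integrin genes 2 rose and 3 fell, with a median of -0.48. With the exchange 5 of 9 integrin genes were higher and 4 lower, with a median of 1.16. ITGA6, a chain of laminin receptors, had 146.3 CPM in Differentiating and 1418 CPM in Suspension, a log2 ratio of -3.28, and -1.47 with the exchange, with 34.5% of its reads in Differentiating unique. ITGA11, a collagen receptor of connective tissue cells, had 38.1 CPM in Differentiating and 1.64 CPM in Suspension, a log2 ratio of 4.54 (4.08 to 5.04), and ITGB3 had one of 1.88. ITGB1, the common beta chain, was level, with 1352 CPM in Differentiating and 1367 CPM in Suspension. Of 41 genes of focal adhesions and actin, the structures by which attached cells grip their support, 1 rose and 6 fell, and the median was -0.16. Of all genes 8.15% rose and 14.1% fell. With the exchange 20 of 42 genes of focal adhesions and actin were higher, 4 lower and the median was 0.94. The shares over all genes were then 18.0% and 23.0%. GJA1, the gap junction protein connexin 43, rose under both uses, with 1257 CPM in Differentiating, 300.7 CPM in Suspension and 35.4 CPM in the library headed Adherent.

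**Figure D4:**
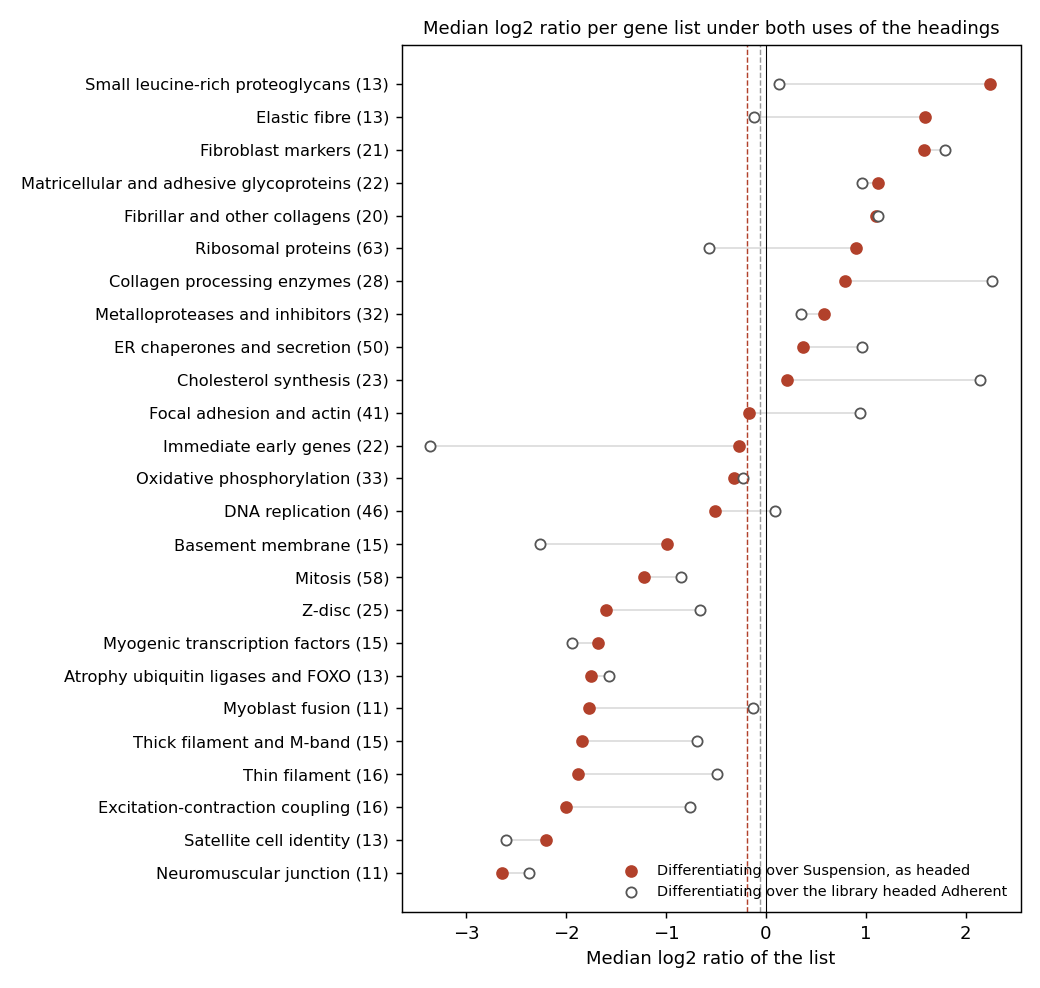
Median log2 ratio of 25 gene lists, with the number of genes that passed 5 CPM in brackets, for Differentiating over Suspension (filled) and for Differentiating over the library headed Adherent (open), and dashed lines at the medians of all genes, -0.18 and -0.06. Muscle lists lie left of 0 under both uses, collagens and their enzymes lie right of 0 under both, and ribosomal proteins, elastic fibre, DNA replication, and focal adhesion and actin change side.

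Growth factors and their receptors differed in both directions. Of 17 genes of VEGF, PDGF and angiopoietin 6 rose and 4 fell, with a median of 0.77. With the exchange 7 of 20 were higher, 9 lower and the median was -0.55. Of 18 FGF genes 4 rose and 6 fell, with a median of -0.35. The exchange gave 2 of 22 FGF genes higher, 11 lower and a median of -1.03. Of 34 TGF-beta and BMP genes 9 rose and 5 fell, and with the exchange 6 of 36 were higher and 15 lower. PDGFRB, the receptor for PDGF of pericytes and fibroblasts, had 517 CPM in Differentiating and 65.3 CPM in Suspension, a log2 ratio of 2.99 (2.91 to 3.06), while its ligand PDGFB fell, with 1.45 CPM in Differentiating and 32.1 CPM in Suspension, a log2 ratio of -4.47 (-5.02 to -3.97). Both kept their direction with the exchange, with log2 ratios of 2.11 and -4.34. PGF, placenta growth factor, had 576.3 CPM in Differentiating and 33.4 CPM in Suspension, a log2 ratio of 4.11, and 6.45 with the exchange. FGF16, an FGF ligand, had 1541 reads in Differentiating and 21 in Suspension, a log2 ratio of 6.26 (5.64 to 6.96). BMP4, the bone morphogenetic protein, fell, with 11.6 CPM in Differentiating and 80.8 CPM in Suspension, a log2 ratio of -2.80, and -4.85 with the exchange.

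In the IGF pathway the genes that rose as headed were the binding proteins IGFBP4 and IGFBP5 and the protease PAPPA. IGFBP4 had 430.2 CPM in Differentiating and 96.0 CPM in Suspension, a log2 ratio of 2.16 (2.10 to 2.23), and PAPPA, the protease that cuts it, had 22.4 CPM in Differentiating and 0.965 CPM in Suspension. IGFBP4 stayed higher with the exchange, at 2.79, and PAPPA had a log2 ratio of -0.43. IGFBP5 had 33.3 CPM in Differentiating and 3.52 CPM in Suspension, a log2 ratio of 3.24, and turned to -1.245 with the exchange. IRS2 fell under both uses, with log2 ratios of -1.79 as headed and -5.12 with the exchange. Of the whole list of 19 genes 3 rose and 5 fell, while 8.15% of all genes rose and 14.1% fell. With the exchange 4 of 20 were higher, 12 lower and the median was -1.22. In the Wnt pathway 7 of 34 rose and 6 fell, among them ROR1, a receptor of WNT5A, with a log2 ratio of 3.27, and WNT7A, a ligand that acts on satellite cells in the mouse, with 38 reads in Differentiating and 441 in Suspension, a log2 ratio of -3.47. Among 20 Notch genes NOTCH1, the receptor, fell with a log2 ratio of -2.24, and its ligand DLL4 had 251 reads in Differentiating and 8 in Suspension. With the exchange NOTCH1 had a log2 ratio of -0.33, DLL4 one of -1.11 and WNT7A one of 2.54. Of 38 Wnt genes 13 were then higher and 16 lower, and of 21 Notch genes 2 were higher and 7 lower.

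Guidance cues, which steer axons and other moving cells, gave some of the lowest ratios. SLIT1, a repellent, had 33.8 CPM in Differentiating and 617 CPM in Suspension, a log2 ratio of -4.19 (-4.30 to -4.09), and 13.2 CPM in the library headed Adherent, so that it turned to 1.36. EPHB1, an ephrin receptor, had 773.8 CPM in Differentiating and 114.7 CPM in Suspension, a log2 ratio of 2.75, and 2.42 with the exchange. Of 35 guidance genes 4 rose and 10 fell, and PLXNA2, a semaphorin receptor, fell under both uses, with log2 ratios of -4.09 and -6.41. With the exchange 8 of 38 guidance genes were higher and 15 lower.

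Genes of inflammation rose in part, with 8 of 21 chemokine, interleukin and TNF family genes higher and 2 lower. With the exchange 9 of 23 were higher and 7 lower, and the median went from 0.52 to -0.11. PTGS2 and PTGES, the enzymes that make prostaglandin E2, had 241.7 and 132.1 CPM in Differentiating and 25.2 and 6.25 CPM in Suspension, with log2 ratios of 3.26 and 4.40. IL8, a chemokine, had 49.4 CPM in Differentiating and 2.14 CPM in Suspension, and IL6, the interleukin, had 241 reads in Differentiating and 22 in Suspension, with log2 ratios of 4.53 and 3.52. With the exchange PTGS2 and PTGES stayed higher, at 2.99 and 1.07, and IL8 and IL6 had log2 ratios of 0.29 and -0.11. ACKR3, a scavenging receptor for CXCL12, had 128.1 CPM in Differentiating, 1.72 CPM in Suspension and 299.3 CPM in the library headed Adherent. PROK2, prokineticin, had 220.8 CPM in Differentiating and 4.40 CPM in Suspension, a log2 ratio of 5.65, and 3 reads in the library headed Adherent.

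Homeobox and other patterning factors of connective tissue differed in both directions, with 9 of 25 higher and 6 lower. HOXD12, a factor of the limb's outer part, had 154 reads in Differentiating and none in Suspension or in the library headed Adherent. With the count of 0 set to a floor of 3 reads it was 53.6-fold higher than in Suspension. The lower end of its interval was 5.43 on the log2 scale. HOXD4 and HOXB3 had 166 and 330 reads in Differentiating and 5 and 32 in Suspension, with log2 ratios of 5.12 and 3.43. TWIST2, a factor of dermal and connective tissue cells, had 21.3 CPM in Differentiating and 1.09 CPM in Suspension, a log2 ratio of 4.29 (3.72 to 4.91). PRRX1, a factor of limb mesenchyme, had 527.5 CPM in Differentiating and 195.8 CPM in Suspension. HOXD12, HOXD4, TWIST2 and PRRX1 stayed at least 2-fold higher with the exchange, and HOXB3 had a log2 ratio of 0.60. MEOX2 turned from 4.42 as headed to -1.77. Over the list 7 of 28 genes were higher and 11 lower with the exchange, and the median turned from 0.44 to -0.71.

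Markers of cell types were read to check the label of satellite cells. The myogenic markers PAX7, MYF5, MYOD1 and DES summed to 1037 CPM in Differentiating and 3603 CPM in Suspension, against 2853 CPM in the library headed Adherent. The myotube markers ACTA1, TNNC2 and TNNT3 summed to 2416 CPM in Differentiating and 4417 CPM in Suspension, against 7005 CPM. The 7 fibroblast markers in the table, PDGFRA, THY1, COL1A2, COL3A1, DCN, LUM and DPT, summed to 58384.5 CPM in Differentiating and 17112.3 CPM in Suspension, against 9213 CPM in the library headed Adherent. All 7 were at or over 5 CPM in Differentiating and 5 in Suspension, where PDGFRA had 1 read and DPT 5. The wider fibroblast list had 15 of 21 genes higher and 2 lower, and 14 of 21 higher and 2 lower with the exchange. COL1A2, COL3A1, DCN, LUM and DPT are also members of the matrix lists, and COL1A2 and COL3A1 hold most of the marker sum. The markers are therefore no readout apart from the matrix genes, and the part of fibroblasts in those results was not tested. DES, MYOD1 and the 3 myotube markers reached 5 CPM in both libraries. PAX7 and MYF5 reached it in Suspension but not in Differentiating, where they had 1.10 and 1.97 CPM.

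Markers of endothelium and leukocytes were low in both libraries. PECAM1, CDH5 and TEK of endothelium summed to 3.11 CPM in Differentiating and 3.82 CPM in Suspension, against 254.5 CPM in the library headed Adherent, and PTPRC, CSF1R and LCP1 of leukocytes to 8.50 and 5.41 CPM, against 87.4 CPM. Markers of smooth muscle and pericytes, ACTA2, MYH11 and PDGFRB, summed to 1217 CPM in Differentiating and 506.1 CPM in Suspension, against 593.7 CPM in the library headed Adherent. Of the wider list of 17 such genes 5 rose and 6 fell, with a median of -0.45. With the exchange 6 of 19 were higher and 9 lower, with a median of -0.66. MYH11 went against the sum, with 1.18 CPM in Differentiating, 1.01 CPM in Suspension and 196.5 CPM in the library headed Adherent. The adipocyte markers PPARG, PLIN1 and ADIPOQ summed to 76.9 CPM in Differentiating and 23.4 CPM in Suspension, against 225.2 CPM. ADIPOQ held most of the last sum, with 29.4 CPM in Differentiating, 8.09 CPM in Suspension and 210 CPM in the library headed Adherent. PLIN1 went against that sum, with more reads in Differentiating than in the library headed Adherent. The cartilage markers SOX9, ACAN and MATN1 summed to 97.8 CPM in Differentiating and 4.99 CPM in Suspension, against 33.1 CPM, and IBSP of bone was under 5 CPM in all 3 libraries. The members of the cartilage sum went opposite ways. ACAN had 75.4 CPM in Differentiating, 0.0419 CPM in Suspension and 0.401 CPM in the library headed Adherent. MATN1 had 1 read in Differentiating, 1 in Suspension and 493 in the library headed Adherent. SOX9, the factor of cartilage, had 22.4 CPM in Differentiating and 4.91 CPM in Suspension, a log2 ratio of 2.19, and 2.34 with the exchange. MCAM, a surface marker of pericytes and endothelium, fell, with 38.6 CPM in Differentiating and 461.8 CPM in Suspension, a log2 ratio of -3.58 (-3.68 to -3.48).

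Most genes of mitosis were lower in Differentiating. Of 58 mitosis genes none rose and 40 fell, all 58 had a log2 ratio below 0, and the median was -1.22. TOP2A, the topoisomerase of dividing cells, had 64.8 CPM in Differentiating and 163.8 CPM in Suspension, a log2 ratio of -1.34 (-1.43 to -1.25). SMC2, a condensin, had 18.2 CPM in Differentiating and 134.1 CPM in Suspension, a log2 ratio of -2.89, and CENPF, a kinetochore protein, had one of -2.37. Genes of DNA replication were nearer to all genes, of which 14.1% fell, with 9 of 46 lower, none higher and a median of -0.51. Of 17 inhibitors and cyclins of the G1 phase 3 fell, among them CDKN1B, the inhibitor p27, with 313.1 CPM in Differentiating and 677.3 CPM in Suspension, a log2 ratio of -1.11, and -0.30 with the exchange. The G1 list with the exchange had 4 of 17 higher and 2 lower, with a median of 0.33, against -0.13 as headed.

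The mitosis list with the exchange had 23 of 53 genes lower, 1 higher and a median of -0.85, and the replication list 6 of 47 lower, 4 higher and a median of 0.09. SMC2 and TOP2A then had log2 ratios of -0.63 and -0.60, and CENPF one of -2.16.

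Ribosomal protein genes were shifted upward, most of them by less than 2-fold. Of 63 genes 26 rose, none fell and 62 had a log2 ratio above 0, with a median of 0.91. RPS12, of the small subunit, had 840.9 CPM in Differentiating and 289.5 CPM in Suspension, a log2 ratio of 1.54. RPL4, of the large subunit, had 2104 CPM in Differentiating and 1304 CPM in Suspension, a log2 ratio of 0.69, below 2-fold like most of the list. Initiation and elongation factors lay near 0, with none of 46 higher, 2 lower and a median of 0.04. In the library headed Adherent ribosomal proteins were higher still, and with the exchange none of 63 rose, 3 fell and the median was -0.57, with RPS12 at -0.39. Reads of near-identical copies of these genes may be split between them.

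In each metabolic list most genes differed by less than 2-fold as headed, and single members lay far from the rest. AKR1D1, a steroid reductase of bile acid synthesis in liver, had 8703 reads in Differentiating and 8 in Suspension, a log2 ratio of 10.15 (9.17 to 11.36), and 167 reads in the library headed Adherent, a log2 ratio of 5.32. CD36, a transporter of fatty acids, had 36.7 CPM in Differentiating, 1.51 CPM in Suspension and 747.6 CPM in the library headed Adherent, so that it rose as headed and fell with the exchange. SCD, the desaturase that makes oleate, fell as headed, with 131.1 CPM in Differentiating and 602.1 CPM in Suspension, and had 17.3 CPM in the library headed Adherent. PLIN1, the coat protein of lipid droplets in adipocytes, had 209 reads in Differentiating, 11 in Suspension and 6 in the library headed Adherent.

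Of 23 genes of cholesterol synthesis 2 rose and none fell, with a median of 0.21, whereas with the exchange 19 of 23 were higher, none lower and the median was 2.15. Of 50 genes of the secretory pathway 6 rose, none fell and 40 had a log2 ratio above 0, with a median of 0.37. With the exchange 24 of 50 were higher, 2 lower and the median was 0.97. Among the 6 was CREB3L1, a factor that drives collagen secretion, with 739.6 CPM in Differentiating and 285.8 CPM in Suspension. Its log2 ratio was 1.37, and 5.00 with the exchange. Glycolysis and the citrate cycle had 2 of 33 higher and 1 lower, oxidative phosphorylation none of 33 higher and 2 lower, and the proteasome none of 29 in either direction. With the exchange glycolysis and the citrate cycle had 9 of 33 higher and 5 lower, and the proteasome 3 of 29 higher and none lower. Oxidative phosphorylation again had none of 33 higher and 2 lower.

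Immediate early genes, which respond within minutes to handling and serum, differed in few members as headed and in most with the exchange. Of 22 genes none rose and 4 fell as headed, with a median of -0.27, while 8.15% of all genes rose and 14.1% fell. JUN, a subunit of the factor AP-1, had 268.9 CPM in Differentiating, 136.2 CPM in Suspension and 9866 CPM in the library headed Adherent. DUSP1, a phosphatase of the MAP kinases, had 33.8 CPM in Differentiating, 89.1 CPM in Suspension and 2171 CPM in the library headed Adherent. With the exchange 20 of 22 genes were at least 2-fold lower in Differentiating and the median was -3.37. The library headed Adherent also held a larger share of intron reads, 24.3% of its gene reads, than Differentiating with 12.0% and Suspension with 15.2%. The part of this response and of the intron share in the ratios with the exchange was not tested.

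Several genes outside the lists stood among the highest and lowest ratios. TMEM119, a membrane protein of bone-forming cells, had 112.5 CPM in Differentiating and 2.73 CPM in Suspension, a log2 ratio of 5.37 (5.01 to 5.75), and MYOC, myocilin, had 137.8 CPM in Differentiating and 6.46 CPM in Suspension, a log2 ratio of 4.42. C1QTNF3, a secreted C1q-like protein of cartilage and fat, had the lowest ratio among genes with at least 100 CPM, with 14.2 CPM in Differentiating and 460.5 CPM in Suspension, a log2 ratio of -5.02 (-5.19 to -4.86). PENK, the precursor of enkephalins, had 50.6 CPM in Differentiating and 501.1 CPM in Suspension, a log2 ratio of -3.31. CYGB, a globin of fibroblasts and muscle, had 11.2 CPM in Differentiating and 103.1 CPM in Suspension. PENK and CYGB kept their direction with the exchange, with log2 ratios of -3.25 and -4.01, and C1QTNF3 and TMEM119 no longer passed 2-fold, with log2 ratios of 0.80 and 0.34.

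Reads on introns come mostly from transcripts that are not yet spliced, and they were counted apart from exon reads in the same libraries. Of the 826 genes that rose, 578 had at least 30 intron reads in the pair, and the intron ratio was above 0 on the log2 scale in 557 of them, with a median of 1.73. Of the 1430 genes that fell, 1113 had as many intron reads, and the ratio was below 0 in 1011, with a median of -1.05. The median of all 8312 genes with such reads was 0.28 on this scale, where intron reads were divided by their own total. Since this median lies above 0, most of all genes did too, and their share was not counted. The 8 small leucine-rich proteoglycans with enough intron reads were all above 0, with a median of 2.84, and the 8 genes of the neuromuscular junction were all below 0, with a median of -2.32. For MYOD1 the log2 ratio of intron reads was -2.88, against -3.03 in exon reads, for COL1A2 2.30 against 1.58, and for TTN -2.43 against -2.38. The lists of ribosomal proteins and mitosis had intron medians of 0.54 and -0.48, nearer to the median of all genes than their exon reads. Exon and intron reads share the library, so this is a second readout of the same RNA and not a replicate. The genes that rose and fell were chosen by their exon ratios in these same libraries. The intron counts are therefore descriptions and no separate support.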

How the data were processed

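RNA of differentiated, suspended and adherent undifferentiated turkey satellite cells was sequenced by the study as 1 pooled library per group. Per the study's methods, reads were demultiplexed with bcl2fastq 2.20, trimmed with Skewer, aligned with STAR 2.5.2b to the turkey reference genome of the Ensembl database and counted with featureCounts. The sources used here do not say whether the deposited table came from that route and holds positions of that build, so no coordinates are printed. The deposited counts are whole exon, intron and gene reads per gene symbol, unscaled by the authors. The deposited RPKM values, scaled by the authors for exon length and depth, served only to check the table. The authors' own fold changes, deposited as scores with a sign, were read only to find which count columns each heading takes.

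Exon counts were divided by the total of exon reads and given as CPM with exact Poisson intervals, using scipy 1.17.1, pandas 2.3.3 and numpy 2.4.6 under Python 3.11.15. One read is 0.0438 CPM in Differentiating and 0.0419 CPM in Suspension. Log2 ratios used no pseudocount, a count of 0 was set to a floor of 3 reads, and genes at or under 3 reads on both sides got no ratio. Reads carried no molecular identifiers, so intervals cover counting error only, and 96.1% and 95.5% of exon reads in Differentiating and Suspension were unique to 1 gene. With 1 library per group no test was run. The members and the 60 gene lists were chosen with earlier results of these data known. Genes were named by rule as the 15 highest and 15 lowest ratios (LOC numbers left out, with a minimum of 10 reads in the library with fewer and of 100 CPM in the other), the 15 largest gains and losses in CPM, per list 6 by ratio and 3 by level, and all members of 3 muscle lists and of the cell type markers. The result of 1 marker group is not reported here. On counts simulated with counting noise for this comparison, 50 of 50 genes changed 3-fold, 50 of 50 changed 4-fold and 50 of 50 changed 8-fold were called, none of 50 changed 1.5-fold, and none of 9648 unchanged genes. The spread between cultures was left out of these simulated counts. Changed genes had a mean of at least 10 CPM before the change, so recovery nearer the minimum level was not covered. The alternatives were the exchange of the headings, TMM factors from edgeR 4.0.16 in R 4.3.3, median-of-ratios, upper-quartile and top-gene scaling, unique and gene reads, pseudocounts of 1 and 10, other minimum levels and fold limits, and genes with a symbol only.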

Additional observations from a re-analysis of the deposited data

How the results depend on the processing

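No list with a median of at least 1 in size changed its direction outside the exchange of the headings, and depth limits genes with few reads in either library, as their intervals show. Counts of genes that rose and fell were 1941 and 2479 with the exchange, 469 and 729 with a pseudocount of 10 CPM, 1706 and 2383 with no minimum level, 353 and 658 with a minimum of 50 CPM, 1424 and 2568 at 1.5-fold, and 355 and 424 at 4-fold. TMM, median-of-ratios and upper-quartile scaling moved the median of all genes to 0.00, -0.02 and -0.01. No paired analysis was possible because each group has 1 library.

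With the exchange these results changed sign on the log2 scale, and the cause was not tested. The median changed sign in 19 of 60 lists, and among those of at least 1 in size as headed it was -0.12 for elastic fibre and -5.65 for endothelial markers. Medians cover the genes that passed in each pair, 13 as headed and 15 with the exchange for elastic fibre, and 6 and 22 for endothelial markers. Lower as headed and above 0 with the exchange were ANKRD1 0.23, ASB5 0.88, C1QTNF3 0.80, CASQ2 0.53, CAV3 0.92, CDH2 3.19, CHRNA1 0.91, EYA2 3.61, GPC1 0.49, HSPB2 1.44, IGFN1 0.99, LAMA5 1.71, MYL3 6.19, MYOM3 2.22, NCAM1 0.12, NES 5.29, NTN4 0.50, SCD 2.93, SLIT1 1.36, TIMP3 0.37, TMEM8C 0.04, TNNC1 2.99, TNNI1 2.98, TNNT2 3.28 and WNT7A 2.54. Higher as headed and below 0 with the exchange were ACKR3 -1.22, CD36 -4.35, DLL4 -1.11, EFEMP1 -1.06, EGFL7 -0.89, ELN -6.07, FBN1 -0.12, FMOD -2.86, GPX3 -0.97, HAS2 -0.11, HMOX1 -0.11, IGFBP5 -1.245, IL6 -0.11, PAPPA -0.43, PLAU -0.06, RPS12 -0.39, SELENOP -0.78, SLN -1.66 and SPON2 -0.25.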

Other observations

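Members of further gene groups outside the muscle and matrix programmes differed between the libraries. Of 36 genes of redox defence and glutathione 9 rose in Differentiating and none fell, with a median log2 ratio of 0.18. With the exchange 13 of 37 were higher and 5 lower, with a median of 0.51. SELENOP, the selenoprotein that carries selenium in plasma, had 57.3 CPM in Differentiating and 6.50 CPM in Suspension, and GPX3, a secreted peroxidase that holds selenium, had 672.2 CPM in Differentiating and 246.0 CPM in Suspension. HMOX1, heme oxygenase, had 122.1 CPM in Differentiating and 37.2 CPM in Suspension. The log2 ratios of these 3 genes with the exchange were -0.78, -0.97 and -0.11. Of 32 heat shock and chaperonin genes none rose and 6 fell, with a median log2 ratio of -0.24. Over all genes 14.1% fell and the median was -0.18. Among the 6 were HSPB2 and HSPB8, small heat shock proteins of muscle, with log2 ratios of -2.70 and -2.08. With the exchange they had log2 ratios of 1.44 and -0.51. Of 32 heat shock and chaperonin genes 1 was then higher and 8 lower, with a median of -0.04.

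Of 21 genes of large proteoglycans and hyaluronan 9 rose and 3 fell, and with the exchange 11 of 21 were higher and 3 lower. HAS2, which makes hyaluronan, had 140.5 CPM in Differentiating and 14.1 CPM in Suspension, a log2 ratio of 3.32, and -0.11 with the exchange. GPC1, a glypican of the cell surface, fell, with 76.4 CPM in Differentiating and 386.5 CPM in Suspension, a log2 ratio of -2.34, and 0.49 with the exchange. Of the 24 endothelial markers in the table, 6 reached 5 CPM in either library, and 5 of these rose, EGFL7, a secreted protein of vessels, among them with 22.6 CPM in Differentiating, 0.377 CPM in Suspension and 42.0 CPM in the library headed Adherent. With the exchange 22 endothelial markers reached this level, 18 were lower in Differentiating and 1 was higher.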
